A study of Schizosaccharomyces pombe with 8 samples.

Results

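The histone genes of the fission yeast Schizosaccharomyces pombe were followed through a short exposure to nitric oxide, in cells with and without the transcription factor Pap1. The set held 10 genes chosen by name: hta1 and hta2 for H2A, htb1 for H2B, hht1, hht2 and hht3 for H3, hhf1, hhf2 and hhf3 for H4, and pht1 for the variant H2A.Z. All 10 were measured, by 13 probe sets that each named a single S. pombe gene, out of 2914 such probe sets for 2896 genes on the array. Each of the 13 lay well above the background level of 3.41 in every array. That level is the 95th percentile of the mean log2 values of Saccharomyces cerevisiae probe sets, a yeast the array also covers. The histone values ran from 8.86 to 12.48. Histone probe sets of S. cerevisiae numbered 7 and read between 1.46 and 3.67.

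The study used 4 groups of 2 Affymetrix Yeast_2 arrays. Wild type cells were strain 972h-, and the mutant was strain AV25, h- pap1::kanMX6, a single deletion strain in which pap1 was replaced by a drug resistance cassette. Cells of both strains were grown in yeast extract medium, moved into phosphate-buffered saline and given 3 mM detaNONOate for 15 min at 30 °C, while control cells received the same concentration of a decomposed solution of that compound. DetaNONOate breaks down in solution and gives off nitric oxide. By the labels the 2 arrays in a group are biological replicates, and control and treated cells were taken from the same flask. Whether replicates came from separate cultures is not said, so the spread between replicates may be partly technical. For the histone genes the question was how their messages respond to nitric oxide, and whether that response differs without Pap1, a bZIP factor of the oxidative stress response.

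Histones are the proteins around which DNA is wound. H3 with H4 and H2A with H2B form the core of the nucleosome, and H2A.Z replaces H2A at selected sites, among them the starts of genes. In fission yeast most, but not all, core histone messages rise in S phase, when new DNA is packaged, and htb1 is the only gene for H2B. The GATA-type factor Ams2 activates core histone genes in S phase, and the HIRA complex, to which Slm9 belongs, represses histone genes outside it. By the order of protein-coding genes in the RefSeq annotation of assembly ASM294v3, htb1 lies next to hta1, and each H3 gene lies next to the H4 gene of the same number, while hta2 and pht1 have no histone neighbour.

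The arrays went with their labels for pap1, whose log2 value was 9.90 to 10.11 in the 4 wild type arrays and 2.14 to 2.35 in the 4 deletion arrays. The median log2 value of the S. pombe genes lay between 7.85 and 7.96 in every array. Treatment also went with a shift in signal toward the 3' end of control transcripts, measured as the log2 value near the 3' end less that near the 5' end (median over 7 transcripts) and called here the 3' to 5' index. It averaged 1.34 ± 0.08 (log2, SD over 2 arrays) in wild type control, 3.35 ± 0.02 in wild type treated, 1.65 ± 0.01 in deletion control and 2.64 ± 0.12 in deletion treated arrays. The rise was 2.01 in wild type against 0.99 in the deletion, with 6 of 7 transcripts moving up in each. The index thus moved with every treatment comparison below, and a change in message level and a change in signal along the transcript cannot be told apart where both go with the groups.

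**Figure D1:**
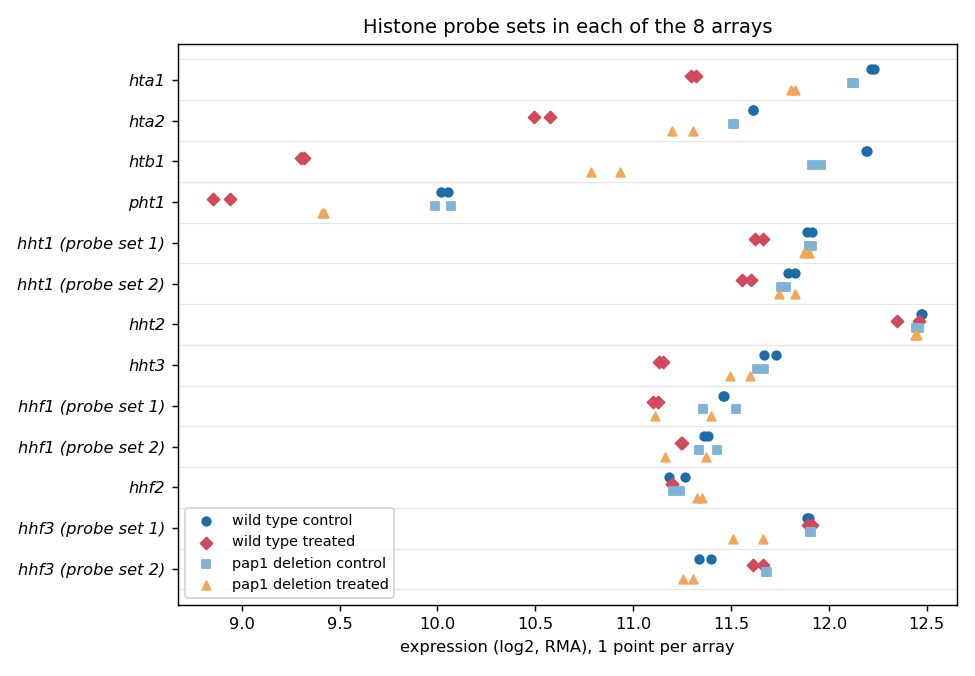
Log2 expression (x axis, RMA values) of the 13 histone probe sets (rows), with 1 point for each of the 8 arrays, coloured by group; probe set 1 of a gene is the one with the higher mean. The largest separation is in htb1, from 12.19 in both wild type control arrays to 9.31 and 9.32 in the treated ones, while hht2 stays between 12.35 and 12.48 in all 8.

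In wild type cells the messages of H2A, H2B and H2A.Z fell under nitric oxide, while those of H3 and H4 fell less or did not pass the test. The H2B message htb1 fell most, by 7.36-fold, the variant pht1 fell by 2.20-fold, and the H2A messages hta2 and hta1 fell by 2.11-fold and 1.89-fold. Among H3 genes hht3 fell by 1.47-fold and hht1 by 1.19-fold, and hhf1 was the single H4 gene that fell, by 1.28-fold. A gene was said to rise or fall when its adjusted p in limma was under 0.05 over all 2896 genes. By that rule 0 of 10 histone genes rose and 7 fell, where 40.5% of all genes tested rose and 39.7% fell. These counts use the probe set of higher mean where a gene had a pair. The other probe set of hhf3 rose in wild type (0.27, adjusted p = 9.2e-04), and that of hhf1 did not pass (-0.13, adjusted p = 0.140). Both treated arrays lay below both control arrays for 8 of 10 histone genes and above them for 0, where this held for 44% and 46.1% of all genes. Together 80.2% of all genes passed, so a call by itself is common here, and 3 of 10 histone genes against 12.4% of all genes fell by at least 2-fold. The median log2 change was -0.45 over the histone genes and 0.017 over all genes tested. RNA came from whole cultures, so fewer cells in S phase and less histone message per cell cannot be told apart, and RMA scales all arrays to 1 distribution, so a change in total message would not be seen.

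In wild type cells htb1 read 12.19 in both control arrays (log2), and 9.32 and 9.31 in the treated ones. Its values without Pap1 were 11.91 and 11.96 in control and 10.79 and 10.93 in treated arrays. In each strain both treated arrays lay below both control arrays, and the treated wild type arrays lay lowest of all. The change in wild type was -2.88 ± 0.05 (log2, SE, n = 2 per group, limma adjusted p = 6.5e-08), which ranked 9 from the lowest of 2896 genes.

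The H2A genes moved less than htb1 in wild type cells. The hta1 probe set read 12.23 and 12.22 in control and 11.32 and 11.29 in treated wild type arrays, a change of -0.92 ± 0.04. Without Pap1 it read 12.13 and 12.12 in control, and 11.82 and 11.81 after treatment. The second H2A gene, hta2, read 11.61 in both control arrays, and 10.49 and 10.58 in treated wild type arrays, a change of -1.08 ± 0.05. Its deletion values were 11.51 in both controls, and 11.20 and 11.30 after treatment. For both genes the groups were fully separated within each strain, with wild type treated arrays the lowest.

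H2A.Z, encoded by pht1, marks chromatin near gene starts and is placed there by the Swr1 remodeller. Its probe set read 10.02 and 10.06 in untreated wild type cells, and 8.94 and 8.86 after treatment, a change of -1.14 ± 0.05. In the deletion the values were 10.07 and 9.99 in control and 9.42 and 9.41 in treated arrays. The control arrays of both strains overlapped, and every treated array lay below every control array. The index, which was taken from control transcripts and not from these 4 genes, was 2.01 higher in the treated than in the control wild type arrays.

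The H3 genes spread from a clear fall to no detected change. The hht3 probe set read 11.73 and 11.67 in control and 11.13 and 11.15 in treated wild type arrays, a change of -0.55 ± 0.05 (adjusted p = 2.8e-05). For hht1 the probe set with the higher mean read 11.91 and 11.89 in control and 11.62 and 11.66 in treated wild type arrays, a change of -0.26 ± 0.04 (adjusted p = 6.4e-04). With the S. pombe genes quantile normalized that change was -0.065 and did not pass (adjusted p = 0.246). The hht2 probe set read 12.47 and 12.48 in control and 12.46 and 12.35 in treated wild type arrays. Its change of -0.068 did not pass (adjusted p = 0.218), with a 95% interval from -0.18 to 0.044, but passed without treated replicate 1 (-0.12, adjusted p = 0.0493).

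Of the H4 genes hhf1 alone fell in wild type cells. The hhf1 probe set with the higher mean read 11.47 and 11.46 in control and 11.10 and 11.12 in treated wild type arrays, a change of -0.35 ± 0.10 (adjusted p = 0.0117). That call was lost when arrays were centred on the median S. pombe gene (-0.27, adjusted p = 0.0542) and after quantile normalization (-0.21, adjusted p = 0.0617). The hhf2 probe set read 11.26 and 11.18 in control and 11.20 and 11.20 in treated wild type arrays, a difference of -0.023 with a 95% interval from -0.13 to 0.081. After quantile normalization it stood at 0.17 and passed (adjusted p = 0.00663), so its direction depends on the scaling. The hhf3 gene is taken up with its probe sets below. Fission yeast has 3 H3 and 3 H4 genes whose products are nearly or wholly identical, so probe sets of these genes may read more than 1 of them, and a value of a single H3 or H4 gene is uncertain.

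**Figure D2:**
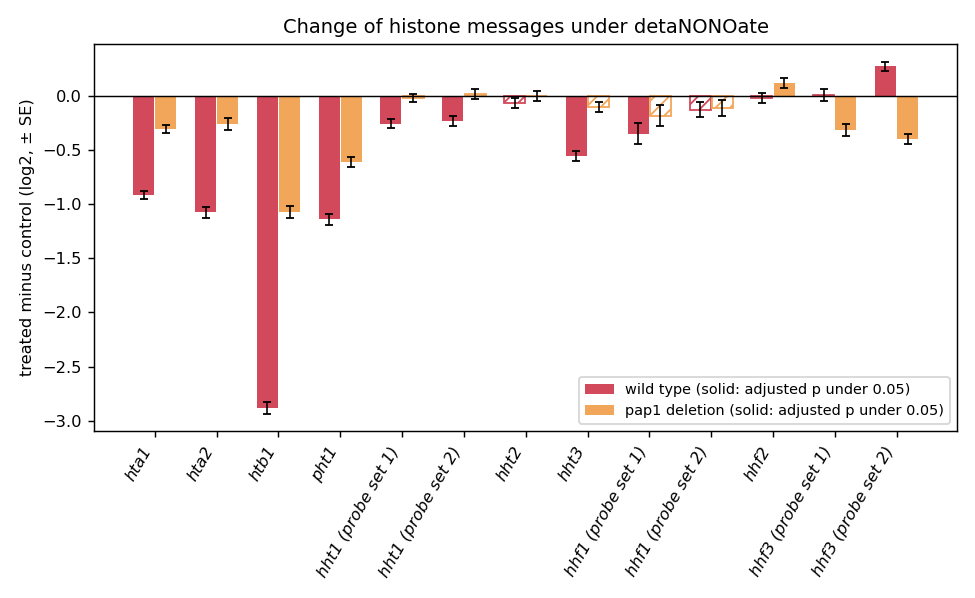
Change of each histone probe set, treated minus control (y axis, log2, bars with SE from limma), in wild type (red) and pap1 deletion cells (orange); hatched bars did not pass an adjusted p of 0.05, n = 2 arrays per group. The bars of htb1, pht1, hta2 and hta1 are the longest in wild type, and the second hhf3 probe set points up in wild type and down in the deletion.

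In cells without Pap1 the same treatment lowered htb1 by 2.11-fold, pht1 by 1.53-fold, hta1 by 1.24-fold and hta2 by 1.20-fold. The H3 genes hht1, hht2 and hht3 did not pass, with changes of -0.022, -0.0061 and -0.11. Of the H4 genes hhf3 fell by 1.25-fold, hhf2 rose by 1.09-fold and hhf1 did not pass (-0.19, adjusted p = 0.134). In all 5 of 10 histone genes fell and 1 rose, where 26.9% of all genes tested fell, 35.5% rose and 62.4% passed in either direction. The median change was -0.22 over the histone genes and 0.047 over all genes. Both treated arrays lay below both controls for 7 of 10 and above them for 1, where this held for 36.5% and 46.7% of all genes. Only htb1 fell by at least 2-fold among the 10, as 2.35% of all genes did. The index rose by 0.99 in these arrays.

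The rise of hhf2 in the deletion was slight, from 11.20 and 11.24 in control to 11.33 and 11.35 in treated arrays (0.12 ± 0.04, limma adjusted p = 0.0480). It no longer passed when any 1 of the 8 arrays was left out (adjusted p from 0.0540 to 0.194). The deletion arrays of hhf1 did not separate the groups, with 11.36 and 11.53 in control and 11.40 and 11.11 in treated arrays. Without the first treated replicate the hhf1 change was -0.33 and passed (adjusted p = 0.0135). For hht3, which read 11.63 and 11.67 in control and 11.59 and 11.50 in treated deletion arrays, leaving out the first treated replicate also brought a call (-0.16, adjusted p = 0.0423). The hht2 arrays of this strain stayed between 12.44 and 12.46 in both groups, and the 95% interval of the change ran from -0.12 to 0.11.

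**Figure D3:**
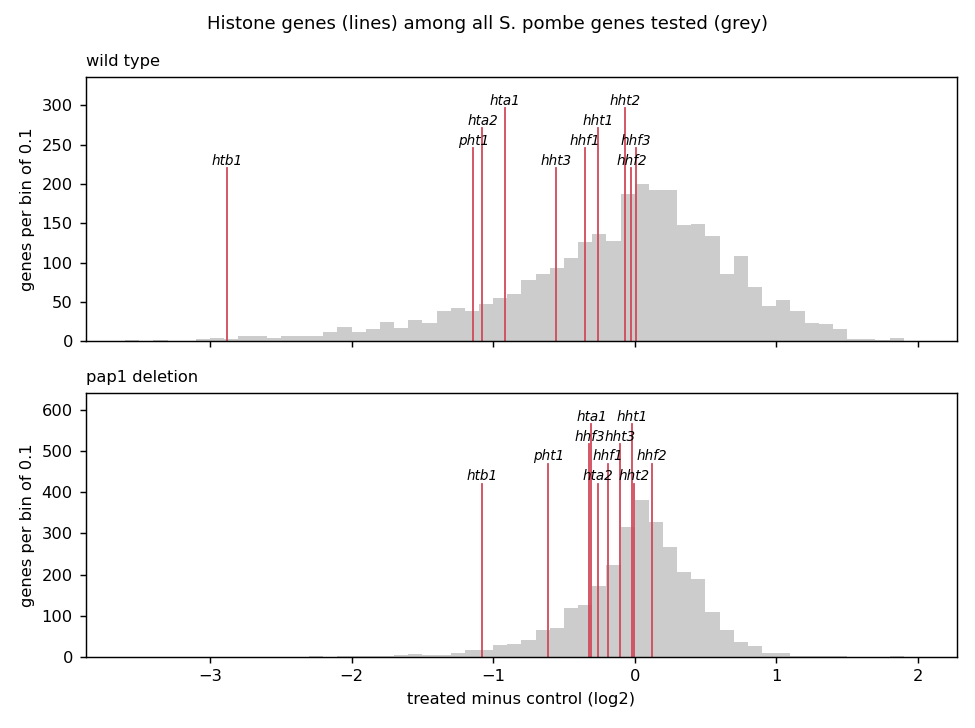
Histogram of the change under detaNONOate (x axis, treated minus control, log2) for all 2896 S. pombe genes tested (grey, genes per bin of 0.1), with the 10 histone genes as labelled lines, in wild type (upper) and pap1 deletion cells (lower). In wild type htb1 lies at -2.88 in the lower tail and hhf2 and hhf3 lie near 0, and in the deletion htb1 lies at -1.08 and the other 9 lie between -0.61 and 0.12. Genes with a pair of probe sets are drawn by that of higher mean, and the other hhf3 probe set changed by 0.27 in wild type.

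The response of the H2A, H2B and H2A.Z genes was smaller without Pap1, by a test of the difference between the strains' responses. The response of htb1 differed by 1.80 ± 0.08 (log2, deletion minus wild type, limma adjusted p = 1.4e-05), that of hta2 by 0.81 ± 0.07, hta1 by 0.61 ± 0.05 and pht1 by 0.53 ± 0.07. Among H3 genes hht3 (0.45 ± 0.07) and hht1 (0.24 ± 0.06) also passed, and hht1 no longer passed with arrays centred on the median gene (0.15, adjusted p = 0.0843) or after quantile normalization (0.12, adjusted p = 0.161). The H4 gene hhf3 went the other way (-0.33 ± 0.08, adjusted p = 0.00900). The genes hht2 (0.062), hhf2 (0.14) and hhf1 (0.16) did not pass. Leaving out an array moved hhf1 between 0.019 and 0.31, and it passed without deletion treated replicate 2 (0.31, adjusted p = 0.0417). Thus 6 of 10 differed upward and 1 downward, where 33.9% of all genes tested differed upward, 25.1% downward and 59.1% in either direction. The index rose by 1.02 less in the deletion than in wild type. The 6 genes that differed upward had the smaller fall in the deletion, and hhf3 had the larger change there. Whether the index bears on these differences was not tested.

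Without active nitric oxide the strains differed little in histone messages by the probe sets of higher mean. Only htb1 passed, lower in the deletion by 0.25 ± 0.05 (log2, adjusted p = 0.0232, 12.19 and 12.19 against 11.91 and 11.96), which makes 1 of 10 where 17.4% of all genes tested passed, 9.15% as lower and 8.22% as higher. That call ended when any 1 of the 4 control arrays was left out (adjusted p from 0.0833 to 0.136). The other 9 genes differed by -0.10 to 0.011, with the H2A genes hta1 (-0.10, adjusted p = 0.110) and hta2 (-0.098, adjusted p = 0.226) at the lower end. The other probe set of hhf3, however, was higher in the deletion by 0.31 ± 0.04 (adjusted p = 0.00649), a larger difference than that of htb1. The index was 0.31 higher in the deletion control arrays.

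Under nitric oxide 7 of 10 histone genes were higher in the deletion than in wild type and hhf3 was lower, where 39.3% of all genes tested were higher, 26.5% lower and 65.8% passed. The H2B message htb1 was 2.92-fold higher (1.55 ± 0.05, adjusted p = 3.9e-06), hta2 1.64-fold, pht1 1.43-fold and hta1 1.42-fold. Among the H3 genes hht3 was 1.32-fold and hht1 1.18-fold higher, and hhf2 was 1.10-fold higher. The call on hhf2 was lost when any 1 of the 4 treated arrays was left out (adjusted p from 0.0515 to 0.0878), and after quantile normalization it stood at -0.053. The genes hht2 (0.041) and hhf1 (0.14) did not pass, and hhf1 passed without deletion treated replicate 2 (0.29, adjusted p = 0.0210). This comparison shares its arrays with the treatment comparisons and is not separate evidence. The index was lower by 0.71 in the deletion treated arrays, at 2.64 against 3.35.

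The largest divergence between neighbouring histone genes was at the locus of htb1 and hta1, and no test of these differences was run. At the H2A and H2B locus the log2 value of htb1 minus that of hta1 was -0.037 and -0.029 in untreated wild type cells, and -2.00 and -1.99 after treatment, a shift of -1.96. In the deletion the same difference was -0.21 and -0.16 in control and -1.04 and -0.88 in treated arrays, a shift of -0.77. The values before treatment are those of different probe sets and say nothing of relative abundance. By the shift, the htb1 probe set lost more signal than that of its neighbour in both strains. The index rose by 2.01 in wild type and by 0.99 in the deletion, and its part in this shift was not tested. The H3 and H4 genes of the first locus, hht1 and hhf1, shifted against each other by 0.094 (wild type) and 0.17 (deletion). The shift between hht2 and hhf2 was -0.045 and -0.13. The control and treated arrays of these differences overlapped for hht2 and hhf2 in wild type and for hht1 and hhf1 in the deletion. For hht3 and hhf3 the shift was -0.56 in wild type cells but 0.21 in the deletion, with the hhf3 probe set of higher mean.

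A pair of probe sets was present for each of hht1, hhf1 and hhf3. In each pair 1 identifier ended in _x_at, which marks a probe set with some probes that match other sequences too. Those of hht1 gave like values, with wild type changes of -0.26 and -0.23, both past the threshold, and deletion changes of -0.022 and 0.017. Those of hhf1 gave -0.35 and -0.13 in wild type, and the second, the _x_at probe set, did not pass (adjusted p = 0.140).

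The pair for hhf3 disagreed. The _x_at probe set stayed between 11.89 and 11.91 in both wild type groups and in the deletion control, and read 11.66 and 11.51 in the deletion treated arrays. The other probe set read 11.34 and 11.40 in wild type control and 11.61 and 11.66 in wild type treated arrays, a rise of 0.27 ± 0.04 (adjusted p = 9.2e-04). In the deletion it read 11.68 and 11.68 in control and 11.31 and 11.25 in treated arrays, a fall by 0.40 ± 0.04. By this probe set hhf3 stood higher in the deletion before treatment (0.31 ± 0.04, adjusted p = 0.00649) and responded in opposite directions in the strains (difference of -0.67 ± 0.06, adjusted p = 1.5e-04). Both probe sets fell in the deletion, and only the second rose in wild type.

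**Figure D4:**
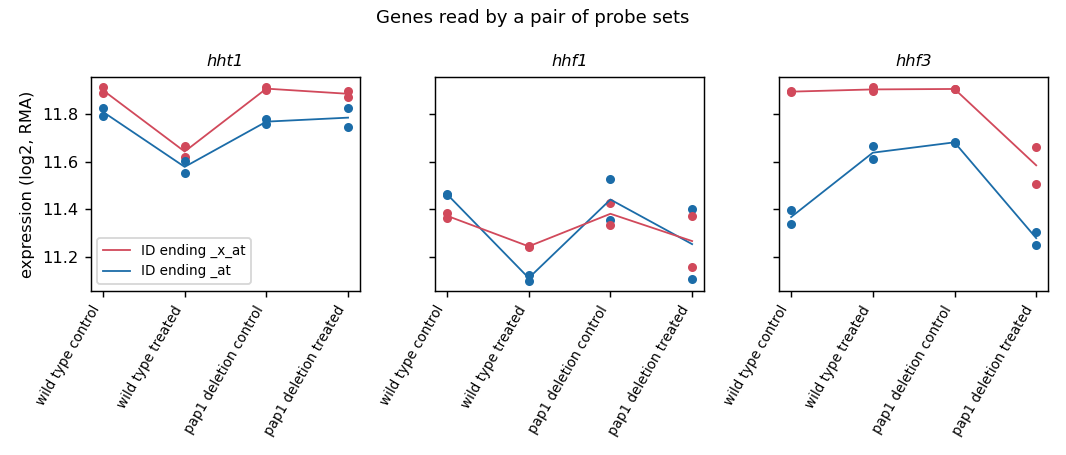
Log2 expression (y axis) in the 4 groups (x axis) for the 3 histone genes read by a pair of probe sets; points are arrays and lines join the group means of a probe set. The lines of hht1 run in parallel, and those of hhf3 part in wild type control, at 11.89 and 11.37.

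The treatment effect was also fitted as 1 effect common to both strains, with and without the index as a covariate. Without it 6 of 10 histone genes fell and none rose, where 29.1% of all genes tested fell, 34.6% rose and 63.7% passed in either direction. With the index in the fit hhf3 alone passed, as a fall (-0.59 ± 0.15, adjusted p = 0.0267, and -0.99 ± 0.15 by its other probe set), where 28.3% of all genes passed, 17.6% as rises and 10.7% as falls. The effect on htb1 was -1.98 ± 0.34 without and 0.54 ± 0.29 with the index (adjusted p = 0.191), on hta1 -0.61 and 0.25, on hta2 -0.67 and 0.46, and on pht1 -0.88 and -0.12. In all 7 of 10 histone genes changed sign, as 1463 of 2896 genes did. This fit has no term for a difference between the strains' responses, which the index can then take up. Its positive values for hta1, hta2 and htb1 are fitted values, not rises seen in the arrays of either strain. The fitted falls of hhf3 were likewise larger than any fall of that gene seen in either strain. By the probe set of higher mean hhf3 changed by 0.0094 (wild type) and -0.32 (deletion). By its other probe set the changes were 0.27 (wild type) and -0.40 (deletion), which have opposite signs. In these 8 arrays the falls of the H2A, H2B and H2A.Z genes and the shift in the index cannot be told apart. How far each probe set lies from the 3' end of its transcript, on which a shift along transcripts would bear, was not used here.

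**Figure D5:**
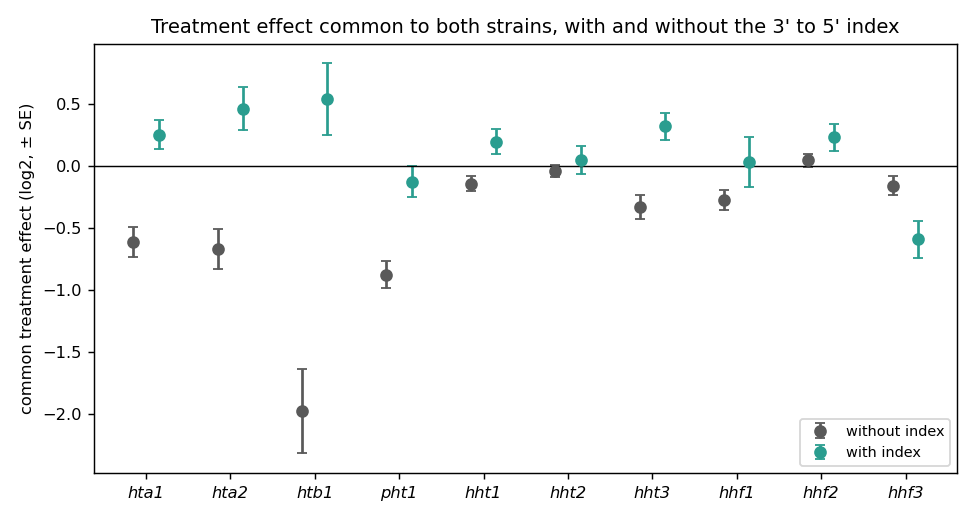
Treatment effect common to both strains (y axis, log2, points with SE from limma, 8 arrays) for the 10 histone genes (x axis), without (grey) and with (green) the 3' to 5' index as a covariate. With the index htb1 moves from -1.98 to 0.54 and hhf3 from -0.16 to -0.59.

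The genes that regulate, carry and modify histones were described from 7 lists, of which 97 genes were measured. In wild type cells 49 rose and 32 fell, a share of 83.5% against 80.2% of all genes tested, with a median of 0.19. In the deletion 48 rose and 30 fell, a share of 80.4% against 62.4% of all genes, with a median of 0.18. The strains' responses differed for 57 of the 97 (58.8%, beside 59.1% of all genes), 23 upward and 34 downward. With the index in the common fit 29 of the 97 passed, 15 as rises and 14 as falls, and 45 changed sign, where 28.3% of all genes passed and 1463 of 2896 changed sign.

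Regulators of histone genes moved in both directions. Of 7 measured, 4 rose and 3 fell in wild type, where 40.5% of all genes rose and 39.7% fell. In the deletion 1 rose and 4 fell, where 35.5% and 26.9% did. The message of ams2 read 6.84 and 6.98 in wild type control and 5.57 and 5.83 in treated arrays, and 6.59 and 6.45 against 5.70 and 5.93 in the deletion. It fell by 2.31-fold in wild type cells, against 1.63-fold in the deletion, and the responses differed (0.50, adjusted p = 0.0281). That difference no longer passed without wild type control replicate 2 (0.43, adjusted p = 0.0913), wild type treated replicate 1 (0.37, 0.0564), deletion control replicate 2 (0.43, 0.0929) or deletion treated replicate 2 (0.39, 0.0902). The message of teb1, which encodes a Myb-domain protein that binds histone promoters, fell by 3.40-fold and 2.08-fold. The F-box protein gene pof3, whose product takes part in the turnover of Ams2, read 5.09 and 5.12 in control and 5.53 and 6.45 in treated wild type arrays, so its treated replicates stood far apart. Its change was 0.88 in wild type (adjusted p = 0.0130), 0.43 without treated replicate 2 and 1.34 without treated replicate 1, and the call was lost without control replicate 1 (0.87, adjusted p = 0.0534). In the deletion pof3 changed by 0.65 and did not pass (adjusted p = 0.0568), though it passed without either treated wild type array (adjusted p = 1.4e-04), and the difference between the strains passed only without wild type treated replicate 1 (-0.69, adjusted p = 0.00103). The HIRA subunit gene slm9 rose slightly, by 0.24 (wild type) and 0.20 (deletion), and the deletion call was lost without its control replicate 2 (0.16, adjusted p = 0.126) or its treated replicate 2 (0.13, adjusted p = 0.111). In the fit with the index ams2 (-0.27), teb1 (-0.41), pof3 (0.43) and slm9 (0.11) kept their sign and none passed.

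Histone chaperones, which carry histones to and from DNA, also split. In wild type 6 of 14 measured rose and 5 fell (median 0.12), about the shares of 40.5% and 39.7% over all genes. In the deletion 4 rose and 4 fell, beside 35.5% and 26.9%. The H2A-H2B chaperone gene nap1 fell by 2.36-fold in wild type cells, by 1.32-fold in the deletion. The H3-H4 chaperone gene asf1, also named cia1, fell by 1.94-fold and 1.48-fold, and pcf3, of the CAF-1 complex that loads H3 and H4 at replication forks, rose by 1.93-fold and 1.24-fold. Of the Swr1 and Ino80 remodellers 10 of 22 rose and 7 fell in wild type (median 0.093), beside 40.5% and 39.7% of all genes. In the deletion 10 rose and 8 fell, a share of 81.8% against 62.4% of all genes, of which 35.5% rose and 26.9% fell. The list was led in wild type by the bromodomain gene bdf1 (log2 change of -1.59), the Ino80 subunit gene ies6 (1.47) and iec1 (-1.22). The swr1 message behaved differently in the strains. It read 8.49 and 8.47 in control and 8.47 and 8.33 in treated wild type arrays, and 8.48 and 8.34 against 7.51 and 7.57 in the deletion. Its change did not pass in wild type (-0.079, adjusted p = 0.299) and was a 1.82-fold fall in the deletion, with a difference between responses of -0.79 ± 0.09 (adjusted p = 3.7e-04). In the fit with the index swr1 stood at -1.62 and passed, a larger fall than in either strain. That fit has no term for a difference between the strains' responses, such as swr1 had. There nap1 (0.36), bdf1 (0.10), iec1 (0.20) and pcf3 (-0.32) changed sign without passing. The signs of asf1 (-0.21) and ies6 (0.18) were kept, and neither passed.

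Of the enzymes that mark histones, the methylation and ubiquitylation list had 13 of 20 up and 2 down in wild type (median 0.46), against 40.5% of all genes up and 39.7% down. It was led by the H3 methyltransferase gene set7 (log2 change of 1.48), swd2 of the Set1 methyltransferase complex (1.29) and the H2B ubiquitin ligase subunit gene brl1 (1.18). In the deletion 13 rose and 6 fell (median 0.24), beside 35.5% and 26.9% of all genes. The responses differed downward for 11 of 20 and upward for 0, beside 25.1% and 33.9%. With the index in the fit 1 of the 20 stood higher and 5 lower, beside 17.6% and 10.7% of all genes. Among the lower were brl1 (-0.62) and set7 (-0.41). Acetyltransferases and their partners rose in 7 of 11 cases and fell in 4 in wild type, and rose in 9 and fell in 1 in the deletion. The shares of all genes beside this list and those that follow were again 40.5% up and 39.7% down in wild type. In the deletion they were 35.5% and 26.9%. With the index in the fit 5 of the 11 stood higher and 1 lower, beside the same 17.6% and 10.7% of all genes. They were led in wild type by epl1 (-1.66) and mst1 (1.29), both of the H4-acetylating NuA4 complex, and the H3 acetyltransferase gene rtt109 (0.68). Deacetylases and their partners rose in 4 of 13 cases and fell in 6 in wild type, and rose in 6 and fell in 4 in the deletion, led in wild type by hos2 (0.86), the NAD-dependent deacetylase gene sir2 (0.83) and pst3 of the Sin3 family (-0.82). Among relatives with a histone fold 5 of 10 rose and 5 fell in wild type, and 5 rose and 3 fell in the deletion. In wild type they were led by the DNA repair gene mhf1 (1.63) and the CCAAT-binding complex genes php3 (-1.37) and php5 (-1.34). With the index 4 of the 13 deacetylases and partners stood higher and 3 lower, and 1 of these 10 relatives stood higher and 0 lower. Of all genes 17.6% stood higher and 10.7% lower in that fit. The centromeric H3 variant gene cnp1 rose by 0.56 in wild type cells, by 0.25 in the deletion, opposite in direction to pht1. In the fit with the index neither passed, with cnp1 at -0.025 and pht1 at -0.12. In that fit swd2 (-0.12), epl1 (0.22), mst1 (-0.38), hos2 (-0.61), mhf1 (-0.26) and php3 (0.049) also changed sign without passing. The signs of rtt109 (0.56), sir2 (0.19), php5 (-0.44) and pst3 (-0.61) were kept, and of these pst3 alone passed.

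The genes closest to htb1 over the 4 group means, each centred on its own mean, were syb1, but2, tim18, sed5 and esc1, at Euclidean distances of 0.15 to 0.25 (log2, 4 groups). Their wild type changes lay between -2.79 and -2.64, beside -2.88 for htb1, and their deletion changes between -1.11 and -0.78, beside -1.08. No histone gene was among the 5. In the common fit with the index these 5 genes stood between 0.43 and 0.95 and none passed, as htb1 stood at 0.54. The 5 were picked for group means like those of htb1, so their like changes largely follow from that choice and are not separate evidence.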

How the data were processed

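Total RNA of 8 samples was labelled as biotinylated cRNA and hybridized to Affymetrix Yeast_2 arrays, per the labels' protocols. The authors deposited log2 values, 1 for each probe set. RMA is the tool named in the submitters' processing notes, without its version. No further scaling was applied in the main comparisons.

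Probe sets were named through GEO's platform annotation, updated by gene ID to RefSeq. Where 14 genes had several probe sets, that of highest mean was used and that of lowest mean was an alternative. Fits used R 4.3.3 and limma 3.58.1 (lmFit with 1 mean per group over all 8 arrays, eBayes without trend, 4 residual and 3.07 prior degrees of freedom). Benjamini-Hochberg adjustment ran over 2896 genes with a threshold of 0.05. With 2 arrays per group, the number of arrays limits precision. SE values are limma's moderated ones. The 3' to 5' index rests on S. pombe transcripts whose own levels can change.

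The 10 genes were all named. Named from each of the 7 lists were up to 3 genes with the largest called change in wild type, with ams2, slm9, asf1, swr1 and cnp1 in addition, and the 5 genes closest to htb1. The members and lists were chosen with earlier results of these data known. No sequences were used here.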

Additional observations from a re-analysis of the deposited data

Results flagged for a closer look

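For 7 histone genes the change under nitric oxide differed between wild type and the pap1 deletion by limma's test of that difference (adjusted p under 0.05 over all 2896 genes, where 59.1% of genes passed). The deletion minus wild type difference of the log2 changes was 1.80 for htb1 (adjusted p = 1.4e-05), 0.81 for hta2 (1.1e-04), 0.61 for hta1 (1.1e-04), 0.53 for pht1 (6.0e-04), 0.45 for hht3 (0.00126) and 0.24 for hht1 (0.00978). It was -0.33 for hhf3 (0.00900), the single one with the opposite sign, and its other probe set gave -0.67. In wild type cells htb1, hta1, hta2, pht1, hht3 and hht1 were lower in both treated arrays than in both controls. In the same arrays the index rose by 2.01 in wild type, against 0.99 without Pap1.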

How the results depend on the processing

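With 2 arrays a group, differences among H3 and H4 genes of about 0.1 (log2) lay near the limit of what could be called, and the sign of values near 0 followed the scaling. The calls on htb1, hta1, hta2, pht1 and hht3 in wild type, and on htb1, hta1, hta2 and pht1 in the deletion, kept direction and call under every alternative run other than the index covariate. That covariate took the common-effect count from 6 to 1 and changed the sign of hta1 (0.25), hta2 (0.46), htb1 (0.54), hht1 (0.20), hht2 (0.050), hht3 (0.32) and hhf1 (0.034). In control cells the count of 1 for the deletion against wild type was 2 with an intensity trend and 2 with the probe set of lowest mean, and 0 to 1 when an array was left out. Leaving out an array moved the count of the 97 genes of the 7 lists called there from 22 to between 3 and 30. In the main fit that count was 22.7% of the 97, beside 17.4% of all genes.

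Values that changed sign with arrays centred on the median gene were hht2 (0.017) and hhf2 (0.062) in wild type, hht2 in the strain difference of responses (-0.020) and in treated cells (-0.022), and hhf2 (0.019) and pht1 (0.0097) in control cells. After quantile normalization these were hhf2 in wild type (0.17), hht1 in the deletion (0.058), hhf2 in the difference of responses (-0.081), hht3 (3e-05), hhf2 (0.028) and pht1 (0.0094) in control cells, and hht2 (-0.016) and hhf2 (-0.053) in treated cells. With the probe set of lowest mean these were hht1 in the deletion (0.017), and hht1 (-0.041) and hhf1 (0.0086) in control cells. Of these, hhf2 in wild type passed as a rise after quantile normalization. Leaving out an array moved hhf2 in wild type from -0.064 to 0.018. In control cells it moved hhf1 from -0.11 to 0.064, hhf2 from -0.042 to 0.041, hht1 from -0.0061 to 0.020 and pht1 from -0.051 to 0.032. In treated cells it moved hhf1 from -0.0035 to 0.29 and hht2 from -0.015 to 0.097. The cause of these changes was not tested.

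Same-numbered arrays did not deviate together (correlations of deviations from -0.26 to 0.059 over genes), so the numbers were not taken as pairs. With the replicate block 7 histone genes passed in wild type and 5 in the deletion, where hhf2 was lost (0.12, adjusted p = 0.0783), and the block within strain gave 7 and 5. With the numbers of the treated deletion arrays crossed, chosen after seeing the data, these counts were 7 and 6. In the main fit 80.2% of all genes passed in wild type and 62.4% in the deletion. The shares of all genes under the block fits are not given here. Leaving out arrays for the named genes of the 7 lists was also added after seeing the data.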
